A study of Rattus norvegicus with 10 samples.

Results

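Astrocyte identity and reactivity genes were followed in left hippocampal RNA of male TgF344-AD rats. The set was chosen by name, as the rows of the count table that carry 1 of 33 listed gene symbols. Of these, 31 had a row among the 17168 rows of the table. The others, the astrocyte transcription factor Sox9 and Hepacam, an adhesion protein that partners Mlc1, are not analysed here. The set divides into 22 homeostatic genes, of which 20 had a row, and 11 reactive genes, all with a row.

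The 5 ibudilast rats were Tg-AD males that received the drug in their chow from 5 months of age for 6 months, and the 5 untreated rats were Tg-AD males on rodent chow. All 10 were 11 months old when tissue was taken, and each gave 1 library. TgF344-AD rats are Fischer 344 rats with a mutant human APP and a mutant human presenilin transgene, driven by a prion promoter that is not specific to astrocytes. Both groups carry the transgenes, so every difference below is within the disease model, and rats without the transgenes are not analysed here. Ibudilast inhibits cyclic nucleotide phosphodiesterases. The series' design text gives RNAlater-ICE, a reagent for frozen tissue, as the storage of the ibudilast samples alone, so treatment and storage cannot be told apart in any comparison here.

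Astrocytes take up water, ions and transmitter around synapses and wrap vessels with endfeet that hold the water channel Aqp4. Gap junctions of connexin proteins join them into a network. When tissue is injured or carries amyloid, astrocytes become reactive: they build more intermediate filament, above all Gfap and vimentin, and switch on secreted and surface proteins such as Serpina3n, Lcn2, Timp1 and Cd44, while some homeostatic genes can decline.

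Library totals ran from 14806807 to 18533520 counts. Levels below are CPM (counts scaled to a common library size), with library sizes adjusted by TMM, an edgeR factor that corrects for library composition, and they are not corrected for gene length. They serve to compare rats for 1 gene, and not genes with each other. Fold changes are log2 values, ibudilast over untreated, with their standard error (SE), and a gene passed where edgeR's quasi-likelihood F test, with Benjamini-Hochberg adjustment, gave it a value below 0.05. In whole tissue, fewer astrocytes and less RNA per astrocyte cannot be told apart. The tissue label was checked with genes of hippocampal neurons, picked after the data were seen. Prox1, a transcription factor of dentate granule cells, was at 10.2 to 20.1 CPM in ibudilast rats and 4.5 to 51.9 CPM in untreated rats. Fibcd1, a marker of CA1 pyramidal cells in mouse, was at 50.4 to 322 CPM in ibudilast rats and 37.1 to 311 CPM in untreated rats. Both were present in all rats, and lowest in ibudilast replicate 4 and untreated replicate 3 within their groups. Untreated replicate 3 was far from its group for Prox1, at 4.5 CPM against 30.4 to 51.9 CPM in the other untreated rats. C1ql2, looked up with them, was at 7.43 CPM in that rat and 56.3 to 146 CPM in the other untreated rats. In ibudilast rats C1ql2 was at 22.6 to 110 CPM. Whether that library holds a different mix of hippocampal tissue was not tested.

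Some libraries stood apart from the rest of their group. Untreated replicate 3 was the highest of the untreated rats for 17 of the 20 homeostatic genes, against 32.8% of all genes tested. Ibudilast replicate 4 was the highest of its group for 9 and the lowest for another 9 of those 20 genes. Over all genes tested it was the highest for 27.5% and the lowest for 33.9%. The summed level of 13 mural and fibroblast markers reached 925 CPM in ibudilast replicate 4, where no other ibudilast rat exceeded 174 CPM, and 604 CPM in untreated replicate 2, where no other untreated rat exceeded 241 CPM. The 10 choroid plexus and ependymal markers summed to 7307 CPM in ibudilast replicate 1, the next ibudilast rat being at 403 CPM, and to 7857 CPM in untreated replicate 2, the next untreated rat being at 296 CPM. The summed list of 13 excitatory neuron markers was lowest in ibudilast replicate 4, at 3025 CPM, and among untreated rats in replicate 3, at 7449.8 CPM.

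Ibudilast hippocampi had lower levels of Gja1 (connexin 43), the channel and transporter genes Slc4a4, Aqp4 and Slc7a11, the receptor genes S1pr1 and F3, and Acsl6, Ncan and Steap4, and higher levels of Mt3 and Aspg. Steap4 passed on 4 to 35 counts a rat, close to the threshold (adjusted p = 0.0416 by edgeR) and with overlapping groups. The filament gene Gfap and the general identity genes Aldh1l1, S100b and Aldoc did not pass. Of 29 genes kept by the low-count filter, 11 passed, 9 lower and 2 higher with ibudilast. Over all 12355 genes tested, 47.1% passed, 22.8% lower and 24.3% higher, so the share of the 29 that passed, 37.9%, was not above the background. The direction was uneven: 31.0% of the 29 fell and 6.90% rose. The split into homeostatic and reactive genes was made with earlier results of these data known. The counts and medians of the classes are therefore a description, and the contrast between them was not tested. Among the 20 homeostatic genes, 8 fell, 1 rose and 11 did not pass, with a median log2 fold change of -0.27. Among the 9 reactive genes kept, 1 fell, 1 rose and 7 did not pass, with a median of 0.13. The median over all genes tested was 0.02. The groups did not overlap for 8 of the 29 genes, 7 with ibudilast below and 1 above, while over all genes tested they did not overlap for 33.4%, with ibudilast below for 15.4% and above for 18.0%. When the libraries named above (ibudilast 1 and 4, untreated 2 and 3) were left out, 13 of the genes fell and 4 rose, where 55.6% of all genes tested passed, 27.4% lower and 28.3% higher. Steap4 was then too low to be tested, Atp1b2, Ppp1r3c, Fabp7, Nes and S1pr3 also fell, Aldoc and Ntsr2 also rose, and the reactive median was -0.18.

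**Figure D1:**
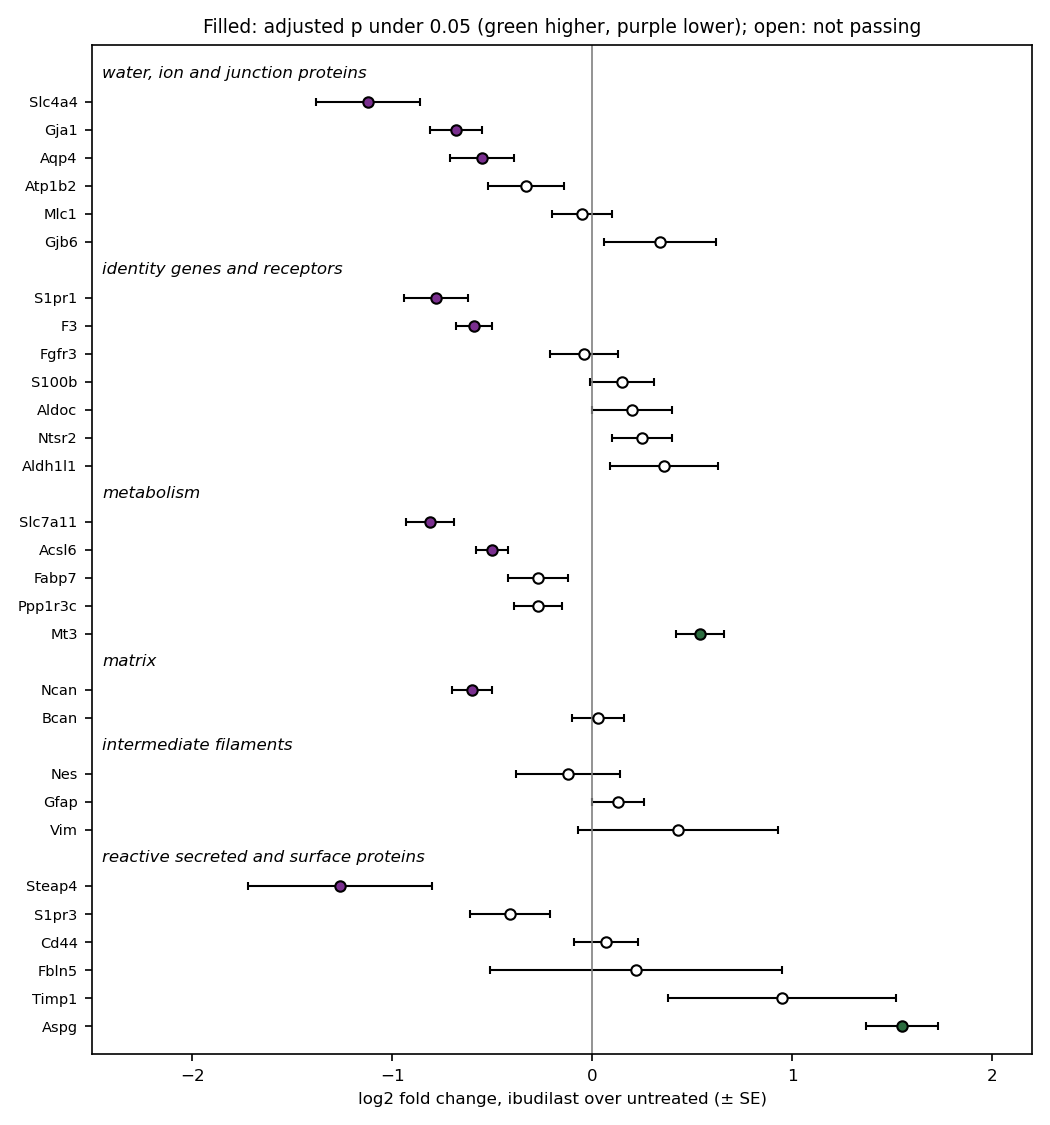
Log2 fold change of ibudilast over untreated rats with its SE for the 29 astrocyte genes kept by the filter, grouped by role. Filled points passed an adjusted p of 0.05. Filled points lie left of 0 for 9 genes, from Acsl6 at -0.50 to Steap4 at -1.26, and right of 0 for Mt3 at 0.54 and Aspg at 1.55.

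Among water, ion and junction genes, Slc4a4, Gja1 and Aqp4 fell, none rose and Atp1b2, Mlc1 and Gjb6 did not pass. Slc4a4 encodes the sodium bicarbonate cotransporter by which astrocytes buffer pH. Its level was 41.6, 33.7, 22.2, 66.9 and 31.3 CPM in ibudilast replicates 1 to 5, against 80.9, 70.0, 115, 87.2 and 73.6 CPM in untreated replicates 1 to 5. The groups did not overlap, although ibudilast replicate 4 came close to the lowest untreated rats. The fall was 1.12 ± 0.26 on the log2 scale (SE, adjusted p = 0.00550 by edgeR), the largest among the homeostatic genes.

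Gja1 encodes connexin 43, the main gap junction protein of astrocytes. In ibudilast rats it was at 432, 384, 366, 331 and 443 CPM, against 595, 506, 794, 638 and 607 CPM in untreated rats. Every ibudilast rat lay below every untreated rat, and untreated replicate 3 was the highest. The difference was -0.68 ± 0.13 on the log2 scale (adjusted p = 0.00158 by edgeR). Gjb6, which encodes connexin 30, the other astrocyte connexin, was at 46.6, 47.1, 40.8, 117 and 53.7 CPM in ibudilast rats, against 41.5, 55.1, 61.1, 41.6 and 40.9 CPM in untreated rats. Apart from the high value of ibudilast replicate 4 the groups overlapped throughout, and the gene did not pass (0.34 ± 0.28, adjusted p = 0.341 by edgeR). Without that rat its log2 fold change was -0.05.

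Aqp4, the water channel of the astrocyte endfoot, measured 711, 543, 452, 741 and 608 CPM with ibudilast, against 846, 719.9, 1104, 956 and 856 CPM without it. Ibudilast replicate 4 exceeded untreated replicate 2, and all other ibudilast rats lay below all untreated rats. The log2 fold change was -0.55 ± 0.16 (adjusted p = 0.0144 by edgeR). Atp1b2, a sodium pump subunit of astrocytes, had 549 to 642 CPM in 4 ibudilast rats and 1080 CPM in ibudilast replicate 4, against 803 to 849 CPM in 4 untreated rats and 1155 CPM in untreated replicate 3. It did not pass with all rats (-0.33 ± 0.19, adjusted p = 0.181 by edgeR), and leaving out single rats gave -0.56 to -0.24, passing only without ibudilast replicate 4 (-0.56, adjusted p = 0.00595). Mlc1, an endfoot membrane protein whose human form is mutated in a leukodystrophy, ranged from 490.2 to 654 CPM in ibudilast rats and from 453 to 770.4 CPM in untreated rats (-0.05 ± 0.15, adjusted p = 0.803 by edgeR).

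**Figure D2:**
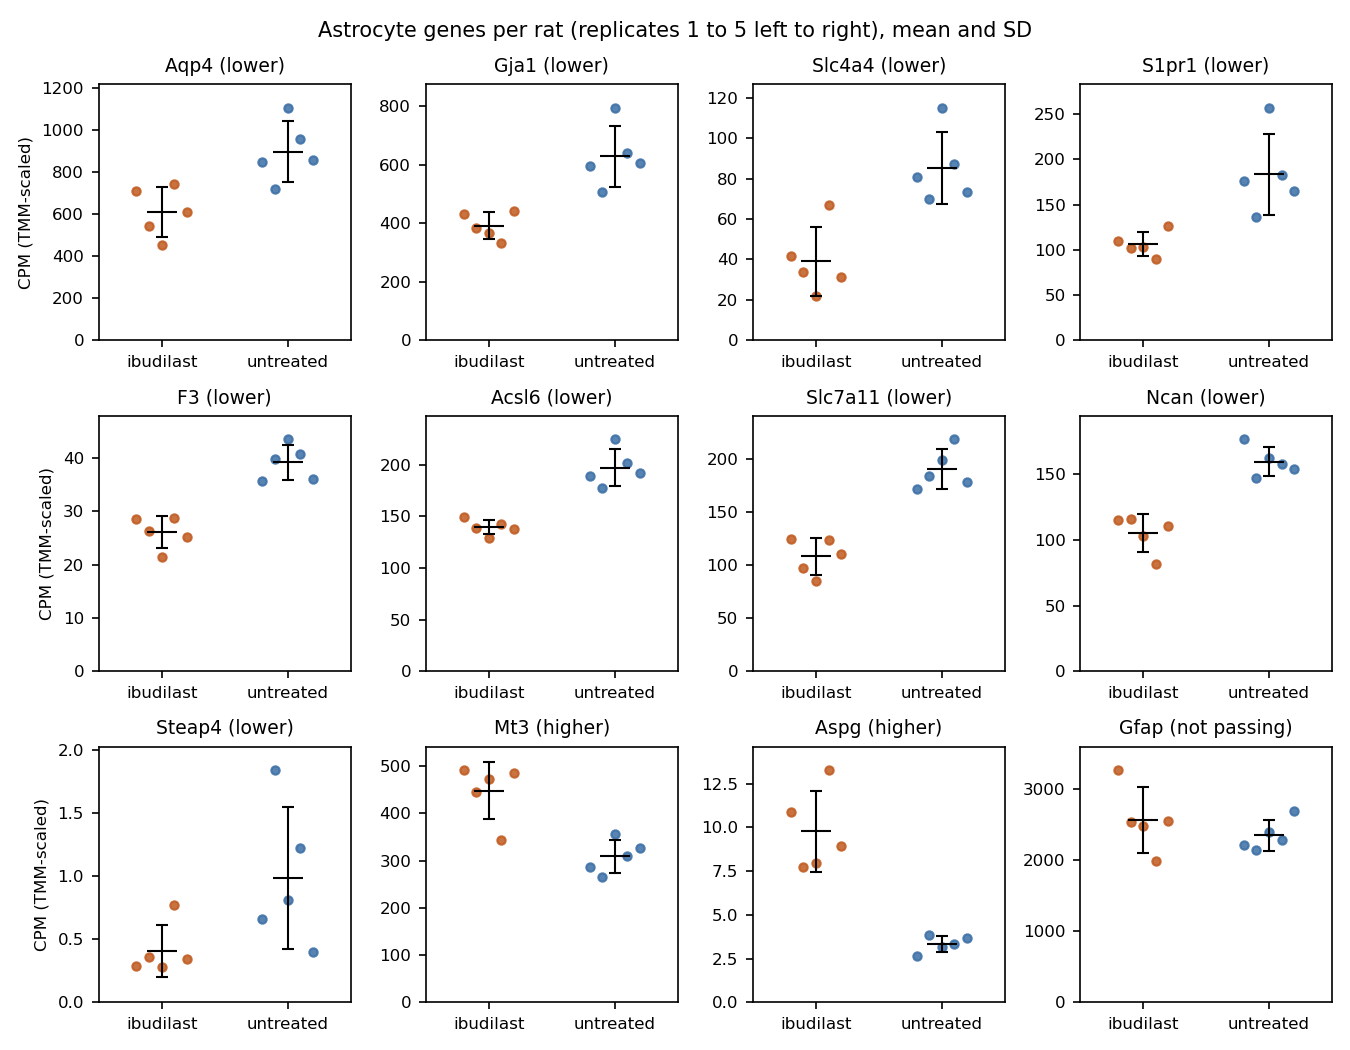
CPM per rat for the 11 astrocyte genes that passed and for Gfap. Points are single rats, replicates 1 to 5 from left to right, with the ibudilast group left of the untreated group, and bars are the mean and SD (n = 5 each). The groups are apart for Gja1, Slc4a4, S1pr1, F3, Acsl6, Slc7a11, Ncan and Aspg and overlap for Aqp4, Mt3, Steap4 and Gfap.

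The general identity genes Aldh1l1, Aldoc and S100b and the receptors Ntsr2 and Fgfr3 did not pass. Aldh1l1, a folate enzyme used as a marker of the whole astrocyte population, had 45.2, 34.9, 26.5, 78.9 and 36.6 CPM in ibudilast rats, against 31.9, 29.2, 47.4, 33.7 and 30.9 CPM in untreated rats. The groups overlapped, with single high values in ibudilast replicate 4 and untreated replicate 3 (0.36 ± 0.27, adjusted p = 0.295 by edgeR). Without ibudilast replicate 4 the log2 fold change was 0.03. Aldoc, a glycolytic aldolase, was at 1141 to 1664 CPM with a median of 1146 in ibudilast rats, against 818 to 1672 CPM with a median of 985 in untreated rats. S100b, a calcium-binding protein, was at 2143 to 2567 CPM in ibudilast rats, against 1545 to 2968 CPM in untreated rats. Ntsr2, a neurotensin receptor of astrocytes, had 197 to 223 CPM in ibudilast rats, against 133 to 250.1 CPM in untreated rats. For these 3 genes the top untreated value was replicate 3, and without it they passed as higher with ibudilast, at 0.38, 0.29 and 0.39 (adjusted p = 0.0367, 0.0482 and 0.00295 by edgeR). With all rats they were at 0.20, 0.15 and 0.25 and did not pass (adjusted p = 0.423, 0.478 and 0.179). Other left-out rats moved them the other way: Aldoc was at 0.06 without ibudilast replicate 4 (adjusted p = 0.827), and without untreated replicate 2 Aldoc was at 0.10, S100b at 0.04 and Ntsr2 at 0.15 (adjusted p = 0.724, 0.845 and 0.412). Fgfr3, a fibroblast growth factor receptor of astrocytes, was at 104 ± 14.2 CPM with ibudilast and 106 ± 30.8 CPM without (SD, n = 5 each; adjusted p = 0.878 by edgeR).

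The other receptors of this group, S1pr1 and F3, fell. S1pr1, a sphingosine-1-phosphate receptor that astrocytes share with endothelium, was at 110.1, 102, 103, 90.4 and 126 CPM in ibudilast rats, against 176, 136, 257, 183 and 165 CPM in untreated rats. All ibudilast rats were lower than all untreated rats (-0.78 ± 0.16, adjusted p = 0.00219 by edgeR). F3, the clotting receptor tissue factor, which astrocytes make in brain, had 28.6, 26.3, 21.5, 28.8 and 25.1 CPM with ibudilast, against 35.6, 39.9, 43.6, 40.7 and 36.1 CPM without. Again the groups were apart, with little spread inside either (-0.59 ± 0.09, adjusted p = 0.000610 by edgeR). Of 13 endothelial markers, 7 fell (53.8%) and 0 rose, against 22.8% lower and 24.3% higher over all genes tested. Their sum was 327 to 685 CPM in ibudilast rats and 605 to 1145 CPM in untreated rats, with no marker at 0. The part of endothelial RNA in the fall of S1pr1 was not tested.

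Metabolic genes split. Slc7a11, the cystine and glutamate exchanger xCT that supplies cystine for glutathione, was at 125, 97.0, 84.7, 124 and 110.4 CPM in ibudilast rats, against 172, 184, 199, 219 and 178 CPM in untreated rats. Every ibudilast rat was below every untreated rat, and ibudilast replicate 3 was the lowest of all. The log2 fold change was -0.81 ± 0.12 (adjusted p = 0.000333 by edgeR). Acsl6, a fatty acid ligase that prefers docosahexaenoic acid and is also made by neurons, had 149, 139, 129.5, 143 and 138 CPM in ibudilast rats, against 189, 177, 225, 202 and 192 CPM in untreated rats. The groups did not overlap, and this fall had the smallest SE of the set (-0.50 ± 0.08, adjusted p = 0.000450 by edgeR). Among 13 excitatory neuron markers, 5 fell (38.5%) and 0 rose, against 22.8% lower and 24.3% higher over all genes tested. Their sum was 3025 to 8564 CPM with ibudilast and 7449.8 to 11724 CPM without, none of them at 0, and its part in the Acsl6 result was not tested.

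Mt3, a metallothionein that binds zinc and copper in brain, moved the other way. It had 492, 446, 472, 344 and 486 CPM in ibudilast rats, against 286, 266, 356, 310.5 and 327 CPM in untreated rats. Ibudilast replicate 4 fell within the untreated range and the other ibudilast rats lay above it. The rise was 0.54 ± 0.12 on the log2 scale (adjusted p = 0.00365 by edgeR). Ppp1r3c, which targets a phosphatase to glycogen, was at 77.7 to 96.4 CPM in ibudilast rats and 79.6 to 133 CPM in untreated rats (-0.27 ± 0.12, adjusted p = 0.0919 by edgeR). Fabp7, a fatty acid carrier of radial glia and astrocytes, had 43.5 to 84.1 CPM in ibudilast rats, against 70.8 to 89.5 CPM in untreated rats (-0.27 ± 0.15, adjusted p = 0.169). Leaving out single rats, Ppp1r3c ran from -0.38 to -0.19 and passed only without untreated replicate 2 (adjusted p = 0.0153).

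The matrix genes Ncan and Bcan encode neurocan and brevican, lectican proteoglycans of the perineuronal matrix that neurons or oligodendrocyte precursors also make. Ncan had 115, 116, 103, 81.7 and 111 CPM in ibudilast rats, against 177, 147, 162, 158 and 154 CPM in untreated rats. The groups were apart, and ibudilast replicate 4 was the lowest rat (-0.60 ± 0.10, adjusted p = 0.000753 by edgeR). Bcan averaged 636 ± 52.4 CPM with ibudilast and 622 ± 114 CPM without (SD, n = 5 each), and did not pass (0.03 ± 0.13, adjusted p = 0.865). Of 9 markers of oligodendrocyte precursors, 3 fell (33.3%) and 1 rose (11.1%), against 22.8% lower and 24.3% higher over all genes tested. Their sum was 577 to 755 CPM in ibudilast rats and 632 to 989 CPM in untreated rats, with none at 0. The 13 excitatory neuron markers summed to 3025 to 8564 CPM with ibudilast and 7449.8 to 11724 CPM without. The part of either list in the Ncan result was not tested.

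Ratios within each rat, which do not depend on library scaling, set the related genes against each other. These 3 pairs were picked after the values of single genes had been seen, so the ratios are a description with no test. The log2 ratio of Gja1 to Gjb6 averaged 2.79 ± 0.72 in ibudilast rats and 3.71 ± 0.30 in untreated rats (SD, n = 5 each). That is a difference of -0.92 ± 0.35 (SE). The groups overlapped only in that ibudilast replicate 1, at 3.21, was above untreated replicate 2, at 3.20, and without ibudilast replicate 4 and untreated replicate 2 the difference was -0.73. For Ncan over Bcan the ratio was -2.60 ± 0.15 in ibudilast rats and -1.95 ± 0.22 in untreated rats, apart in all rats (difference -0.65 ± 0.12). For S1pr1 over S1pr3, the other S1P receptor of the set, the ratio was 3.08 ± 0.30 in ibudilast rats and 3.42 ± 0.64 in untreated rats, with overlap (difference -0.33 ± 0.32). Without ibudilast replicate 4 and untreated replicate 2 this difference was -0.60, and without all 4 libraries that stood apart -0.22.

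**Figure D3:**
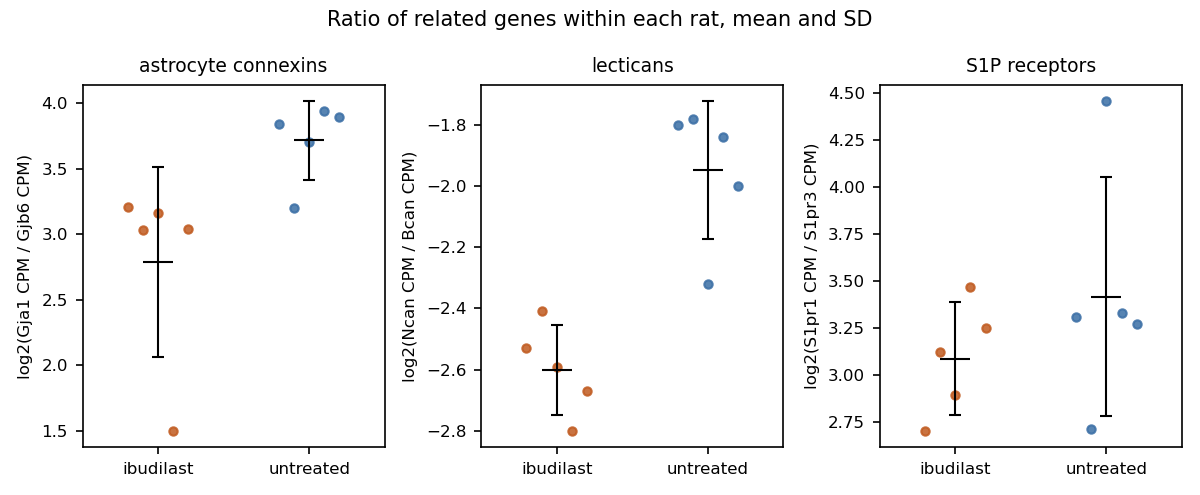
Log2 ratio of the CPM of 2 related genes within each rat, for the astrocyte connexins, the lecticans and the S1P receptors. Points are rats, replicates 1 to 5 from left to right in each group, and bars the mean and SD (n = 5 each). The Ncan to Bcan ratio is lower in every ibudilast rat, at -2.80 to -2.41, than in every untreated rat, at -2.32 to -1.78.

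The intermediate filament genes, the usual readout of reactive astrocytes, did not pass. Gfap was at 3278, 2535, 2489, 1990.4 and 2560.1 CPM in ibudilast rats, against 2224, 2152, 2398, 2293 and 2703 CPM in untreated rats. The ibudilast group held both the highest and the lowest of the 10 values (0.13 ± 0.13, adjusted p = 0.469 by edgeR). Vim, the gene of vimentin, which endothelial, mural and meningeal cells also make, had 181, 94.0, 65.4, 416 and 94.8 CPM in ibudilast rats, against 68.2, 222, 106, 140.1 and 98.9 CPM in untreated rats. Its highest values were in ibudilast replicate 4 and untreated replicate 2, the libraries with the most mural and fibroblast marker RNA (0.43 ± 0.50, adjusted p = 0.517). Nes, the gene of nestin, was at 12.7 to 15.1 CPM in 4 ibudilast rats and 34.6 CPM in ibudilast replicate 4, against 18.4 to 23.2 CPM in untreated rats. It did not pass with all rats (-0.12 ± 0.26, adjusted p = 0.735), and leaving out single rats gave -0.52 to -0.02, passing only without ibudilast replicate 4 (-0.52, adjusted p = 0.00222 by edgeR).

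Of the reactive secreted and surface genes, Aspg rose and Steap4 fell. Aspg encodes an asparaginase that is induced in reactive mouse astrocytes. It had 10.9, 7.74, 7.95, 13.3 and 8.97 CPM in ibudilast rats, against 2.64, 3.84, 3.18, 3.33 and 3.69 CPM in untreated rats. The lowest ibudilast rat was above the highest untreated rat, and the means were 2.92-fold apart. With a log2 fold change of 1.55 ± 0.18 (adjusted p = 0.000101 by edgeR), it was the largest rise of the set. Steap4, a metal reductase, had 0.288, 0.357, 0.279, 0.768 and 0.347 CPM with ibudilast, against 0.661, 1.84, 0.812, 1.22 and 0.398 CPM without. These are few counts, the groups overlap, and the fall was close to the threshold (-1.26 ± 0.46, adjusted p = 0.0416). It did not pass without untreated replicate 2 (-0.91, adjusted p = 0.113) or 4 (-1.18, 0.0837), nor without ibudilast replicate 1 (-1.15, 0.0863), 2 (-1.21, 0.0829), 3 (-1.16, 0.0861) or 5 (-1.20, 0.0850).

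Timp1, an inhibitor of matrix metalloproteinases, was at 2.82, 2.80, 1.74, 10.6 and 1.91 CPM in ibudilast rats, against 1.62, 4.53, 1.5, 1.15 and 1.42 CPM in untreated rats. Ibudilast replicate 4 and untreated replicate 2 were again the highest of their groups (0.95 ± 0.57, adjusted p = 0.198 by edgeR), and the value depended on them. It was 0.16 without ibudilast replicate 4 (adjusted p = 0.770), 1.47 without untreated replicate 2 (0.0600), 0.69 without both (0.0464) and 0.62 without all 4 libraries that stood apart (0.0842). Fbln5, an elastic fibre protein, had the same high rats, at 13.8 CPM against at most 3.51 CPM in other ibudilast rats, and at 8.69 CPM against at most 3.68 CPM in other untreated rats (0.22 ± 0.73, adjusted p = 0.836). Cd44, a hyaluronan receptor, was at 12.4 to 17.6 CPM in ibudilast rats and 11.3 to 19.2 CPM in untreated rats (0.07 ± 0.16, adjusted p = 0.748 by edgeR). S1pr3 was at 8.15 to 17.0 CPM in ibudilast rats and 11.7 to 20.7 CPM in untreated rats (-0.41 ± 0.20, adjusted p = 0.108). Without untreated replicate 3 it passed at -0.55 (adjusted p = 0.0279), and without ibudilast replicate 1 at -0.54 (0.0472), within a range of -0.55 to -0.31 over single rats left out.

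Serpina3n, a secreted protease inhibitor, and Lcn2, the iron carrier lipocalin 2, are strongly induced in reactive mouse astrocytes, yet both were at the limit of detection here. Serpina3n had 1, 0, 1, 0 and 1 counts in ibudilast rats and 0, 4, 0, 1 and 4 counts in untreated rats. Lcn2 had 8, 5, 3, 6 and 10 counts in ibudilast rats and 3, 4, 4, 5 and 2 counts in untreated rats. A count of 0 allows up to 3 counts, which is 0.158 to 0.209 CPM in these libraries, counting error only. Serpina3n belongs to a family of similar genes whose reads can be split or lost in counting, so its value is uncertain. Neither gene passed the low-count filter.

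**Figure D4:**
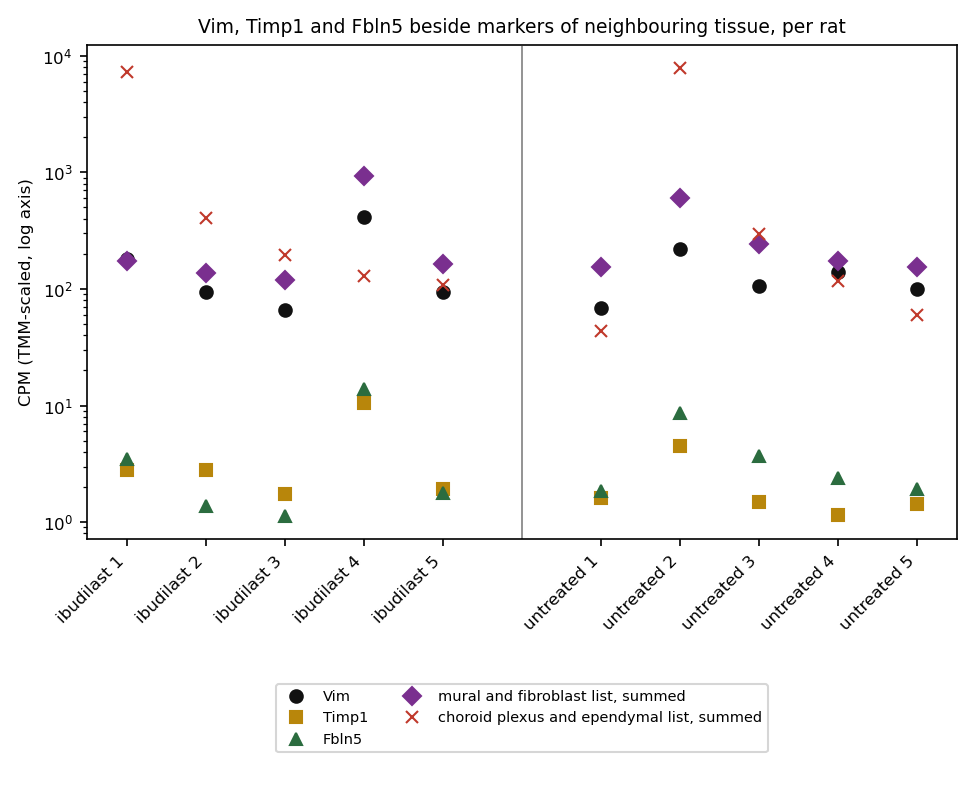
CPM on a log axis in each rat, ibudilast left of untreated, for Vim, Timp1 and Fbln5 and for the summed mural and fibroblast and the summed choroid plexus and ependymal lists. Vim, Timp1, Fbln5 and the mural and fibroblast list are highest in ibudilast replicate 4 and in untreated replicate 2. The choroid plexus and ependymal list is highest in ibudilast replicate 1 and untreated replicate 2.

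How much the rats of 1 group varied depended on single libraries. The coefficient of variation of the 20 homeostatic genes had a median of 13.5% in ibudilast rats and 18.4% in untreated rats, and of 8.70% without ibudilast replicate 4 and 9.74% without untreated replicate 3. For the 9 reactive genes it was 50.1% in ibudilast rats and 23.2% in untreated rats, but 15.6% in ibudilast rats without replicate 4. Fbln5 was the most variable in both groups.

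**Figure D5:**
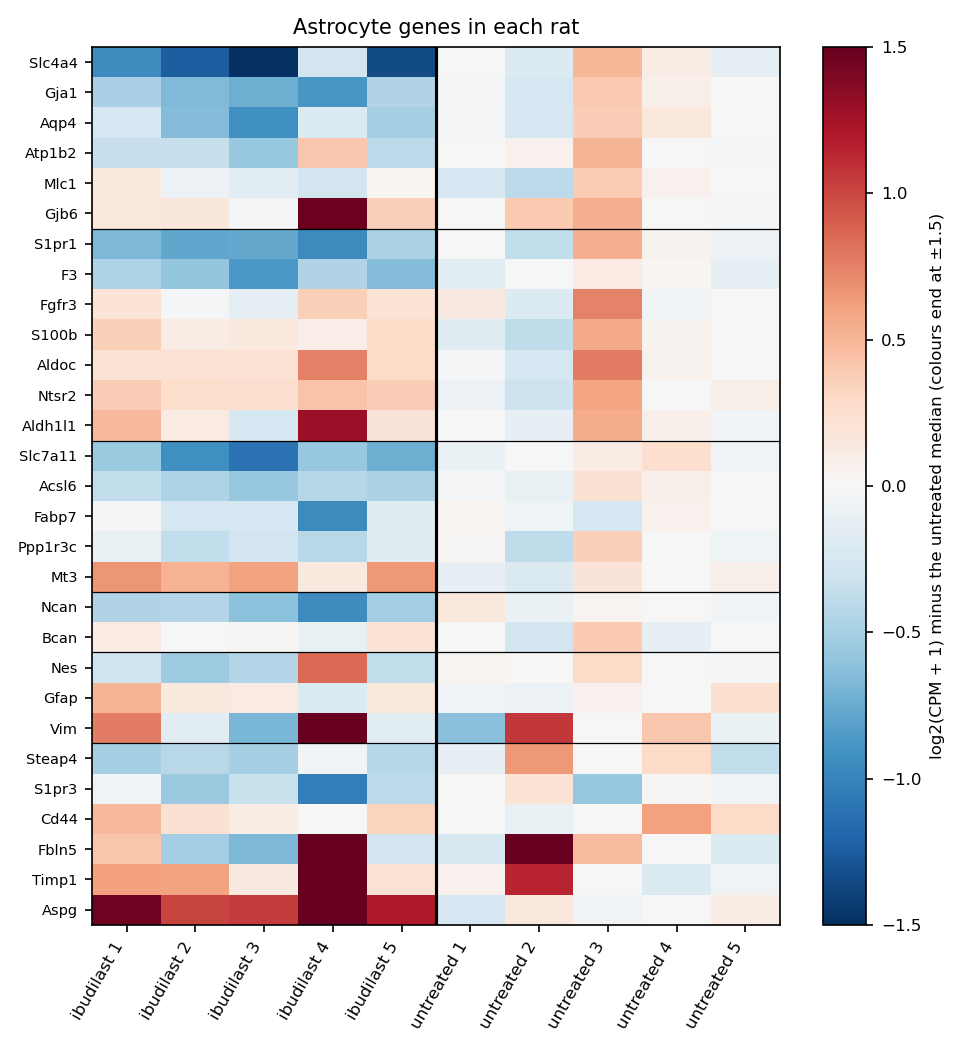
The 29 astrocyte genes in each rat, as log2(CPM + 1) minus the median of the untreated rats, with genes in rows by role and rats in columns, ibudilast left of untreated. Red is above and blue below the untreated median. The blue columns of ibudilast rats run through Slc4a4, Gja1, Aqp4, S1pr1, F3, Slc7a11, Acsl6 and Ncan, and Aspg is red in all 5 ibudilast rats.

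Promoters are shown for 3 genes whose groups did not overlap: Aspg, which had the largest rise, and Gja1 and S1pr1, the genes that fell and hold the core of the cyclic AMP response element (CRE). This element is of interest because ibudilast acts on cyclic nucleotide breakdown. Sequences are RefSeq's for GRCr8, from 250 bases before to 50 after the gene start, 5′ to 3′ on the gene's strand, and are those of the Brown Norway reference and not of these rats. Capitals mark the CRE core TGACG, read as CGTCA on the other strand, and the AP-1 motif TGANTCA, the site of Fos and Jun proteins.
Aspg, chr6:136997773-136998072, plus strand: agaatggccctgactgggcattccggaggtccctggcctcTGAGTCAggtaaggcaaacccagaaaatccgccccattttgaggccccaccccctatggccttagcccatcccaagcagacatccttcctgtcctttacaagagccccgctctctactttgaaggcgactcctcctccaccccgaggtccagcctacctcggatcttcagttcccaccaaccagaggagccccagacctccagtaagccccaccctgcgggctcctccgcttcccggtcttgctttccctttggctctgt
Gja1, chr20:36302314-36302613, plus strand: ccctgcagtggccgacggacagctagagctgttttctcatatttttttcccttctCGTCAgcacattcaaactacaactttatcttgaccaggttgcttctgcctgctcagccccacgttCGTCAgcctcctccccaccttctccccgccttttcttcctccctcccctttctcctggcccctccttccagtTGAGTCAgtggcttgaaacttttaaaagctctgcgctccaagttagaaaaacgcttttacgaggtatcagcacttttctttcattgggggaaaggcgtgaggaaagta
S1pr1, chr2:206314021-206314320, minus strand: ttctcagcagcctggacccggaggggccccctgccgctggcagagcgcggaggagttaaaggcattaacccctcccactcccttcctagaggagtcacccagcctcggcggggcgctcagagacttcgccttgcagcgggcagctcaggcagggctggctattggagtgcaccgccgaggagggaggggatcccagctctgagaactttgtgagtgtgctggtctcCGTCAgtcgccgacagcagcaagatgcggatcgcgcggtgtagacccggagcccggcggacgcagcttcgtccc

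The table of promoters held 31 of the 33 astrocyte genes. Of these, 4 held the CRE core on either strand, Gja1, S1pr1, Gjb6 and Timp1, against 21.2% of all 33469 promoters of this length. The core was in 2 of the 8 promoters of genes that fell and 0 of the 2 of genes that rose. It was in 2 of the 18 promoters of genes that did not pass. A role of the core in these changes was not tested. The full palindrome TGACGTCA, which contains the core on both strands, was in 0 of the 31 and in 1.83% of all promoters. AP-1 motifs were in Aspg and Gja1, genes that moved in opposite directions, and in 7.33% of all promoters. The STAT motif TTCNNNGAA was in 5, Acsl6, Ntsr2, Ppp1r3c, Serpina3n and Steap4, and in 8.87% of all promoters.

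Other astrocyte genes were listed with earlier results of these data known, and each list is set against the 47.1% of all genes that passed, 22.8% lower and 24.3% higher. Of 36 further astrocyte-enriched genes tested, 5 rose, 10 fell and 21 did not pass, with a median log2 fold change of -0.08. The share that passed was 41.7%, 27.8% lower and 13.9% higher. The glutamate transporter Slc1a2 was at 146 ± 40.9 CPM in ibudilast rats and 474 ± 117 CPM in untreated rats (SD, n = 5 each; log2 fold change -1.69, adjusted p = 0.000251 by edgeR). Dio2, the deiodinase that activates thyroid hormone, was at 5.11 ± 0.649 CPM with ibudilast and 10.5 ± 1.93 CPM without (-1.03, adjusted p = 0.000351). Lgi4 and Papss2, a secreted glial protein and an enzyme of sulfate activation, rose by 0.71 and 0.53 on the log2 scale (adjusted p = 0.000660 and 0.000956 by edgeR).

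Of 21 further reactive genes tested, 2 rose, 4 fell and 15 did not pass, with a median of -0.08. Here 28.6% passed. Complement C3, a gene of reactive astrocytes that microglia also make, was at 43.8 ± 6.18 CPM in ibudilast rats and 99.1 ± 29.5 CPM in untreated rats (-1.18, adjusted p = 0.000551 by edgeR). The prostaglandin synthase Ptgs2, which neurons also make, was at -1.68 (adjusted p = 0.00360) and the membrane protein Tm4sf1 at -0.74 (adjusted p = 0.0259). The cytokine Clcf1 rose by 1.23 from low levels, at 1.24 ± 0.258 CPM with ibudilast and 0.522 ± 0.187 CPM without (adjusted p = 0.00478). Of 14 microglia markers, 7 fell and 0 rose, and their sum was 576 to 691 CPM in ibudilast rats and 677 to 1288 CPM in untreated rats, with none at 0. The sum of 1288 CPM was untreated replicate 3, and the other untreated rats were at 677 to 764 CPM. C3 was also highest in that rat, at 149 CPM against 73.8 to 102 CPM in the other untreated rats. The part of microglial RNA in the fall of C3 was not tested.

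Among 26 regulators of astrocyte fate and reactivity, 11 fell, 2 rose and 13 did not pass, with a median of -0.38. The share that passed, 50%, was near the 47.1% of all genes, with 42.3% lower and 7.69% higher. Lifr, a receptor for cytokines that drive Gfap through STAT3, was at 9.78 ± 1.55 CPM in ibudilast rats and 20.8 ± 2.76 CPM in untreated rats (-1.09, adjusted p = 0.000111 by edgeR). Nfia, a transcription factor that starts astrocyte development, was at 40.6 ± 8.47 CPM with ibudilast and 67.7 ± 2.90 CPM without (-0.74, adjusted p = 0.000908). The bone morphogenetic protein receptor Bmpr1a and the growth factor Fgf2 fell by 0.69 and 1.23 on the log2 scale (adjusted p = 0.00187 and 0.00204). None of these regulators is made by astrocytes alone. Oligodendrocyte markers moved the other way in the same libraries: 8 of 15 rose (53.3%) and 0 fell, against 24.3% higher and 22.8% lower over all genes tested. Their sums were 16564 to 19755 CPM in ibudilast rats and 8144 to 15849.9 CPM in untreated rats.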

How the data were processed

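Left hippocampal RNA of 5 ibudilast and 5 untreated rats was sequenced, 1 library per rat, from strand-specific mRNA libraries per the labels. The main deposited table gives, for each gene symbol, the authors' expected counts. A second deposited table holds a normalized signal, TMM-normalized by the authors; whole reads were recovered from it for 100% of values within 0.01, and served as an alternative, which called 5817 genes. Per the submitters' processing notes, the tools were RSEM 1.2.15, Bowtie2 2.1.0, bcl2fastq and edgeR, with the rn6 build; the annotation is not given in the sources used here.

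Non-whole values made up 12% of the table, among them those of Aqp4, Gja1, Slc7a11 and Gfap, and all were rounded. Genes were tested with edgeR's quasi-likelihood test (edgeR 4.0.16, limma 3.58.1, R 4.3.3), robust, with TMM and filterByExpr, Benjamini-Hochberg adjusted over 12355 genes. The SE is the log2 fold change divided by the square root of F. The procedure was tested on simulated counts. No libraries of 1 group agreed within sampling noise (lowest chi-square per gene 11.6). Replicate numbers are shared between the groups, and rats with the same number were not treated as pairs. All 33 genes are named; of other lists, the 4 with the smallest p. Genes, lists, the split into classes and tests were chosen with earlier results of these data known. Alternatives were RLE, upper-quartile or no factors, DESeq2 1.42.0, limma-voom, edgeR's exact test, other filters, a replicate block, a threshold of 0.01 and leaving out rats. Promoters were matched by symbol.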

Additional observations from a re-analysis of the deposited data

Results flagged for a closer look

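Among 62 groups of 5 rats (31 genes in each group), 14 held a rat whose gap to the next value exceeded Dixon's critical share of the range, 0.710. A flag also needed at least 10 counts in some rat of the group, which Serpina3n in both groups and Lcn2 in untreated rats lacked. Chance flags about 1 in 20 for normally distributed values in independent groups. The same rats recur for every gene here, so the 14 cannot be judged by that rate. All 14 flagged rats were the highest of their group. Ibudilast replicate 4 accounted for Gjb6 at 117 CPM, Atp1b2 at 1080 CPM, Aldoc at 1664 CPM, Nes at 34.6 CPM, Timp1 at 10.6 CPM, Steap4 at 0.768 CPM and Fbln5 at 13.8 CPM. Untreated replicate 3 accounted for Atp1b2 at 1155 CPM, Aldh1l1 at 47.4 CPM, Aldoc at 1672 CPM, Fgfr3 at 159.6 CPM and Nes at 23.2 CPM. Untreated replicate 2 accounted for Timp1 at 4.53 CPM and Fbln5 at 8.69 CPM. The part of other tissue in these values was not tested.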

How the results depend on the processing

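Of the 11 genes that passed, 10 kept their direction and their call at 0.05 under all 22 alternatives, and Steap4 kept its call in 10 of the 20 that could test it. The whole reads recovered from the normalized signal are among the 22. They called 5817 genes, the same number as the main fit, and are not a separate check. At 0.01, 7 genes were lower, Aqp4 being at an adjusted p of 0.0144. The count of reactive genes that fell was 0 in place of 1 with upper-quartile factors, library size alone, limma-voom, a threshold of 0.01 and the replicate block, and 2 without the 4 libraries set apart by markers (ibudilast 1 and 4, untreated 2 and 3). These left-out sets were chosen after seeing the data. There 4 genes rose, 3 of them homeostatic; without ibudilast 4 and untreated 2, 2 reactive genes rose. Leaving out single rats gave 2 to 5 genes higher, 1 to 4 homeostatic genes higher and 0 to 2 reactive genes lower, and a reactive median of -0.23 to 0.14; the 5 and the 4 came without untreated replicate 3. The replicate block gave 4726 genes changed in place of 5817 and 8 astrocyte genes lower in place of 9. Rats with the same number deviated together for 1 of 5 numbers only (correlations -0.329 to 0.419), and the main fit did not pair them. These correlations cover all genes and cannot show whether such rats shared other conditions.

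Signs that turned belonged to genes that did not pass in either setting. Fgfr3 was at 0.01 with upper-quartile factors and 0.05 with library size alone, where Mlc1 was at 0.03. Fbln5 was at -0.20 by limma-voom and -0.18 with the replicate block, and Bcan at -0.00049 with no low-count filter. Without ibudilast 4 and untreated 2, Aldh1l1 and Aldoc were at -0.02, Bcan at -0.01 and Fbln5 at -0.34. Without the 4 libraries, Vim was at -0.27, Cd44 at -0.09 and Fbln5 at -0.51. Leaving out single rats, Gjb6 ran from -0.05 to 0.46, Mlc1 from -0.15 to 0.04, Fgfr3 from -0.14 to 0.13, Bcan from -0.06 to 0.12, Vim from -0.23 to 0.72, Cd44 from -0.02 to 0.19 and Fbln5 from -0.93 to 0.81. The cause was not tested. Serpina3n, Lcn2 and Steap4 had few counts, at 0 to 35 a rat.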
